A study of Homo sapiens with 6 samples.

Results

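The genes described here carry or control antigen presentation by major histocompatibility complex (MHC) class II molecules, measured in MEC-1 cells with and without an shRNA against UGT2B17. They are 10 genes, 8 of them among the 18404 tested on a probe set of their own: CIITA, CD74, HLA-DMA, HLA-DMB, HLA-DOA, HLA-DOB, HLA-DPA1, HLA-DPB1, HLA-DQB1 and HLA-DRA. They were listed by function, and each was read on the probe set with the highest mean over the 6 arrays among those annotated to it alone. CD74 is annotated only together with ROS1, and HLA-DRA only together with HLA-DQA1, so these 2 genes are reported on shared probe sets and their signal cannot be assigned to 1 gene. MEC-1 is an established B cell line from chronic lymphocytic leukemia, grown in RPMI medium with fetal calf serum and without phenol red or antibiotics. Of the 6 arrays, 3 came from cells given a lentiviral shRNA against UGT2B17, which encodes an enzyme that glucuronidates steroids, and 3 from cells given a scrambled shRNA. Both groups thus share the cell line and the lentiviral delivery, and the number of hairpins or clones is not given in the labels. The design text calls the replicates independent but names no cultures, so each p-value covers only the spread between these arrays, which may be technical.

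MHC class II molecules are heterodimers of an alpha and a beta chain that show peptides from endosomes to CD4+ T cells, and B cells express them constitutively. The invariant chain, encoded by CD74, guides new class II molecules to endosomes and blocks their groove. HLA-DM, a dimer of HLA-DMA and HLA-DMB, then exchanges the remaining invariant chain fragment for antigenic peptide, and HLA-DO, a dimer of HLA-DOA and HLA-DOB, restrains HLA-DM. CIITA is a coactivator of class II transcription. It does not bind DNA itself but is held at class II promoters by the RFX complex on the X box and by NF-Y on the Y box.

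The promoter stretches are shown because this X and Y box arrangement is the feature by which the class II genes are jointly regulated. In the RefSeq promoter table of GRCh38.p14, 250 bases before to 50 after each annotated start, 8 of the 10 genes matched with 9 entries, HLA-DPA1 having 2. The letters searched on both strands were an X box core, CCNAG followed after 3 bases by CNGA, and a Y box core, ATTGG. Capitals mark matches on either strand, and each sequence reads 5′ to 3′ in the direction of the gene.

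HLA-DQB1: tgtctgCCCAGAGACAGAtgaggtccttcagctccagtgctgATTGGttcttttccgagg
HLA-DOB: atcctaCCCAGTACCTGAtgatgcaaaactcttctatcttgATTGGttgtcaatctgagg
HLA-DMA: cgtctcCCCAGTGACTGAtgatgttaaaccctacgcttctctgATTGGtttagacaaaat
HLA-DOA: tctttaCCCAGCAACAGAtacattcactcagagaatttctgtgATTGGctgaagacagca
HLA-DMB: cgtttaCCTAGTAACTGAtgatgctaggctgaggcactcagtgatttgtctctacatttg
HLA-DPA1: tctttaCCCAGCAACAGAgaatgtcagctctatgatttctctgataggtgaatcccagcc
HLA-DPB1: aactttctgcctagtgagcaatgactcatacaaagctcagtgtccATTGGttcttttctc
CD74: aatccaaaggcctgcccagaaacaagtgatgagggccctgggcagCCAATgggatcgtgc

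All of these stretches are from the minus strand except that of HLA-DPB1. In that order they lie at chr6:32666728-32666787, chr6:32817082-32817141, chr6:32953160-32953219, chr6:33009642-33009701, chr6:32941066-32941125, chr6:33073698-33073757, chr6:33075846-33075905 (plus strand) and chr5:150412949-150413008. The X box core was present in 6 of the 9 entries and the Y box core in 7. HLA-DQB1, HLA-DOB, HLA-DMA and HLA-DOA had both on the strand of the gene, 24, 23, 25 and 25 bases apart. Among all 35116 promoter entries, 6.76% held the X box core and 34.6% the Y box core on either strand. Only 10 entries, 0.0285%, held both at a gap of 20 to 30 bases: these 4 genes, HLA-DQB2, the class I-like gene MR1, and ELOVL3, ARHGAP26, TGFA-IT1 and LOC107985895. The letters were chosen after the sequences of the class II genes had been read and with their expression values known. These shares therefore describe the search and are no test. A missing match says only that these letters are not in the window.

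**Figure D1:**
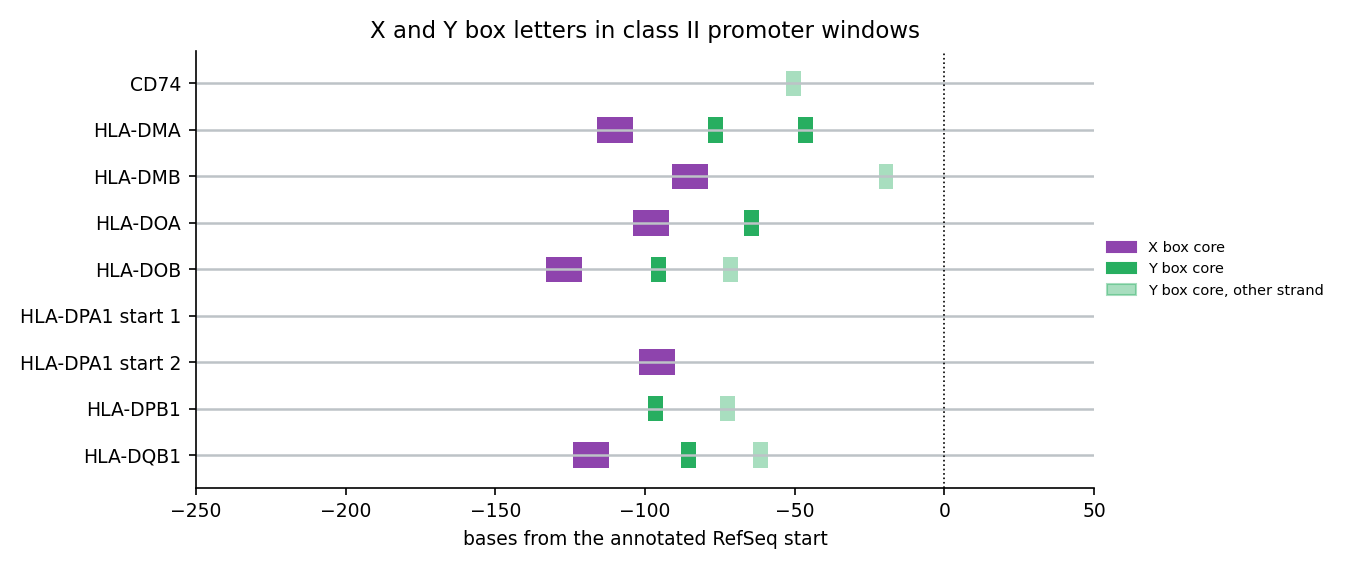
Positions of the X box core and the Y box core in the promoter entries of the class II genes, in bases from the annotated RefSeq start at 0. HLA-DMA, HLA-DOA, HLA-DOB and HLA-DQB1 have the X box core upstream of a Y box core at a gap of 23 to 25 bases, and the pale bars are Y box cores on the other strand.

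The deposited values are log2 expression values from robust multi-array averaging (RMA), for 32321 probe sets, and the targeted gene checks the labels. UGT2B17 read 3.19, 3.27 and 3.17 log2 units on the knockdown arrays and 3.95, 3.69 and 3.91 on the scrambled arrays, with no overlap. It fell by 0.64 ± 0.08 log2 units (SE, n = 3 each; limma, adjusted p = 0.00654), on a dim probe set. Pairwise correlations of arrays ran from 0.991 to 0.996. Scrambled replicate 3 lay furthest from its group mean over all genes (root mean square 0.138 log2 units), where the other 5 arrays gave 0.0771 to 0.112. Over all 18404 genes, 665 passed (limma, Benjamini-Hochberg adjusted p under 0.05), which is 3.61%; 1.92% were higher in the knockdown and 1.69% lower.

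The class II genes did not move in one direction with the UGT2B17 shRNA. Of the 10 genes, HLA-DQB1 rose and the other 9 did not pass, and 7 of the 10 had an absolute log2 fold change under 0.2. Their median log2 fold change was -0.02, and 5 of 10 were above 0. For the 8 genes on a probe set of their own the median was 0.06, against -0.0022 for all genes tested, with 5 above 0 and 3 below. Among the 8 genes in the fit over all genes, 1 passed, beside 3.61% of all genes, and 2 had an unadjusted p under 0.05, beside 18.2%. The scrambled and knockdown arrays did not overlap for 4 genes, HLA-DQB1 and HLA-DOB upward and CD74 and HLA-DPB1 downward. Such separation was found for 24.8% of all genes tested and 20.3% of all deposited probe sets. With 3 arrays against 3, an exact two-sided permutation test of a single gene cannot go below 0.1.

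**Figure D2:**
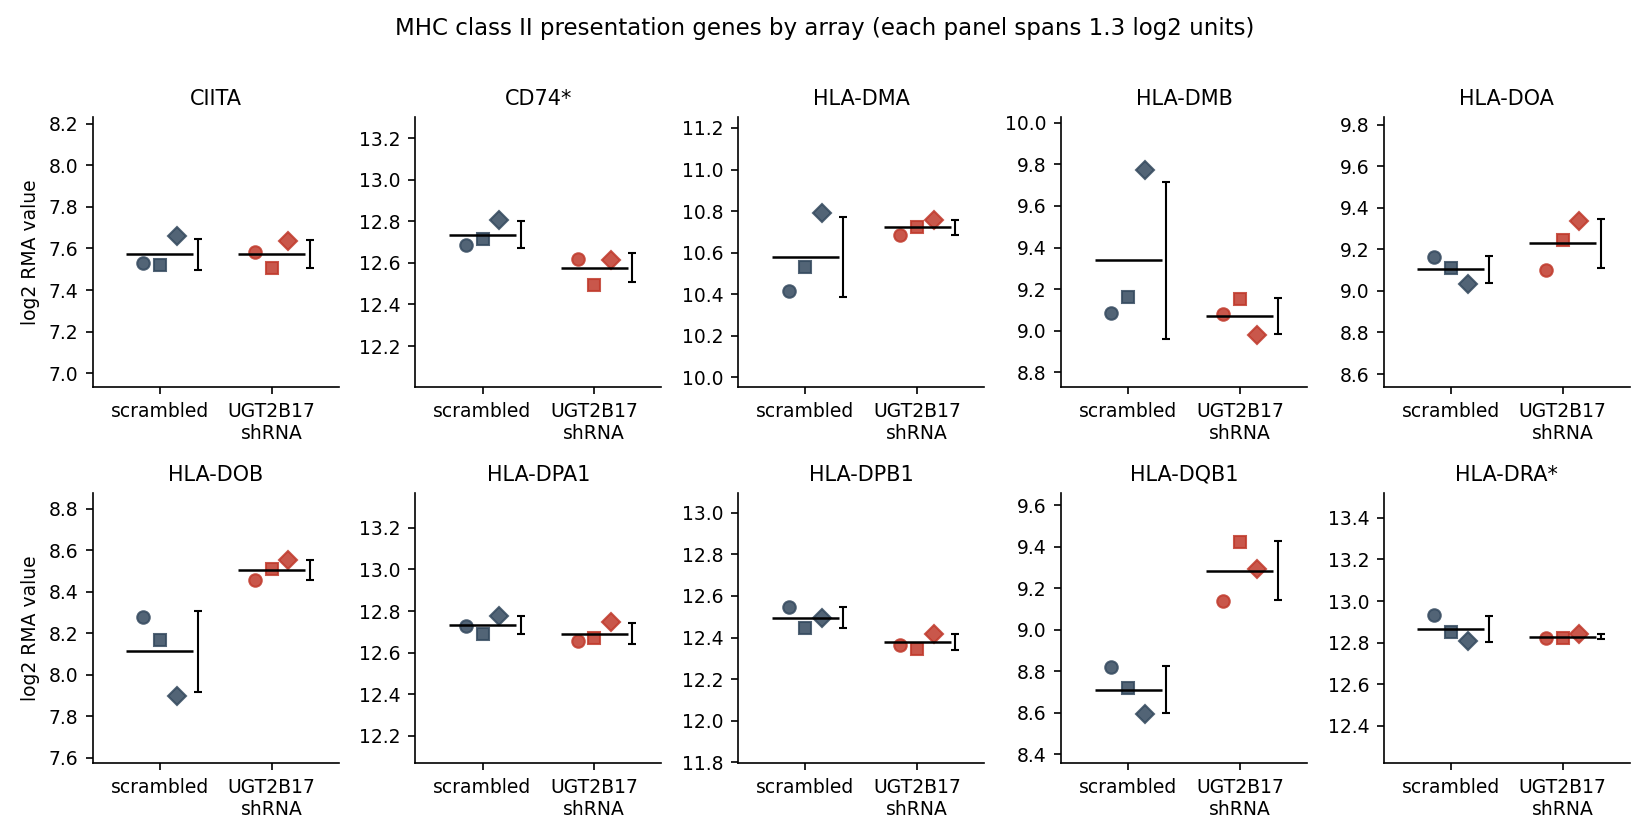
Log2 RMA values of the 10 class II genes on each array, with circles, squares and diamonds for replicates 1, 2 and 3, horizontal lines for group means and bars for 1 SD (n = 3); an asterisk marks a probe set shared with another gene. The groups are apart for HLA-DQB1 and HLA-DOB, which are higher with the UGT2B17 shRNA, and for CD74 and HLA-DPB1, which are lower, while scrambled replicate 3 lies above the other arrays for HLA-DMB.

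CIITA, the coactivator at the head of this gene set, was level between the groups. Its probe set read 7.58, 7.50 and 7.64 log2 units with the UGT2B17 shRNA and 7.53, 7.52 and 7.66 with the scrambled shRNA. The groups overlapped throughout. CIITA differed by 0.0038 ± 0.07 log2 units (SE; 95% interval -0.16 to 0.16; limma, adjusted p = 0.988), and its sign turned under 2 other scalings of the arrays, at -0.0046 and -0.02. A change in CIITA of more than 0.16 log2 units in either direction lies outside that interval.

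CD74, the invariant chain, was slightly lower on its probe set shared with ROS1, a receptor tyrosine kinase. The values were 12.62, 12.50 and 12.62 with the UGT2B17 shRNA and 12.68, 12.72 and 12.81 with the scrambled shRNA. Every knockdown value was under every scrambled value. This amounted to a log2 fold change of -0.16 ± 0.07 (SE, n = 3 each), or 89.6% of the scrambled signal, and did not pass (limma over all deposited probe sets, adjusted p = 0.401).

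Of the classical class II chains, the bright probe sets of HLA-DR and HLA-DP differed little between the groups. HLA-DRA, the alpha chain of HLA-DR, read 12.82, 12.82 and 12.84 log2 units in the knockdown and 12.93, 12.85 and 12.81 with scrambled shRNA, on a probe set shared with HLA-DQA1. The log2 fold change was -0.04 ± 0.06 (SE; 95% interval -0.18 to 0.11; limma over all deposited probe sets, adjusted p = 0.858). The other 2 probe sets shared by these genes gave -0.35 ± 0.26 and -0.09 ± 0.08, with overlapping groups. HLA-DPA1, the HLA-DP alpha chain, read 12.66, 12.67 and 12.75 against 12.73, 12.69 and 12.78. The groups overlapped, and the log2 fold change was -0.04 ± 0.06 (95% interval -0.19 to 0.10; adjusted p = 0.798).

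HLA-DPB1, the HLA-DP beta chain, read 12.36, 12.35 and 12.42 in the knockdown against 12.55, 12.45 and 12.50 with scrambled shRNA. The 3 knockdown arrays were lowest, by a log2 fold change of -0.12 ± 0.06 (SE) that did not pass (limma, adjusted p = 0.371). Both chains of HLA-DP thus lay within 0.2 log2 units of the control. The other 2 probe sets of HLA-DPB1 gave -0.09 and 0.22, with overlapping groups, and the other probe set of HLA-DPA1 gave 0.02. By mean value, the probe sets read for HLA-DPA1 and HLA-DPB1 lie at percentile 99.2 and 98.9 of all deposited probe sets.

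HLA-DQB1, the beta chain of HLA-DQ, was the only class II gene that passed. It read 9.14, 9.42 and 9.29 log2 units with the UGT2B17 shRNA and 8.82, 8.72 and 8.59 with the scrambled shRNA. Every knockdown array was higher than every scrambled array. The means were 9.29 ± 0.14 and 8.71 ± 0.11 (SD, n = 3 each), a rise of 0.57 ± 0.09 log2 units (SE) or 1.49-fold (limma, adjusted p = 0.0145). The adjusted p was 0.0687 when all deposited probe sets were tested, and 0.0743, 0.0666 and 0.0652 without knockdown replicate 2, knockdown replicate 3 or scrambled replicate 2.

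The rise was seen on 1 probe set and on no other that names HLA-DQB1. The probe set that rose is annotated to HLA-DQB1 through 1 transcript record, which is not a RefSeq record, and RefSeq lists an antisense RNA, HLA-DQB1-AS1, inside the gene; which transcript it reads was not tested. The 6 other probe sets that name HLA-DQB1 share it with HLA-DRB1, HLA-DQB2 or a group of 5 DRB genes, and their log2 fold changes ran from -0.02 to 0.05. The brightest, shared with 5 DRB genes, read 12.47, 12.53 and 12.55 in the knockdown and 12.53, 12.52 and 12.46 in the control, and gave 0.01 ± 0.06 (SE; limma over all deposited probe sets, adjusted p = 0.964). The probe set shared by HLA-DRB1 and HLA-DQB1 gave 0.05 ± 0.07 (adjusted p = 0.782). If shared probe sets had been admitted for this gene, its brightest one would therefore not have passed.

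HLA-DQA1, the partner chain of HLA-DQB1, was measured on a probe set of its own. It read 11.91, 11.90 and 11.97 with the UGT2B17 shRNA against 11.81, 11.82 and 11.86, which did not overlap. The log2 fold change was 0.09 ± 0.06 (SE) and did not pass (limma, adjusted p = 0.484). A probe set shared by HLA-DQA2 and HLA-DQA1 read 9.16 on all 3 knockdown arrays and 8.93, 9.10 and 8.89 in the control, or 0.19 ± 0.07, and the other 2 naming both gave 0.01 ± 0.07 and -0.01 ± 0.06. HLA-DRB5, a second HLA-DR beta chain, read -0.05 ± 0.06 and the pseudogene HLA-DPB2 0.06 ± 0.06, and neither passed. In all, 3 of the 9 other class II loci had a probe set of their own. Of these 3, 0 passed, beside 3.61% of all genes tested. An unadjusted p under 0.05 in limma was found for 0 of the 3, beside 18.2% of all genes.

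Over all 30 probe sets annotated to any class II gene, 17 were above 0 and 13 below, with a median log2 fold change of 0.01. In the fit over all 32321 deposited probe sets, 0 of the 30 passed, where 0.511% of all did. At an unadjusted p under 0.05 there were 4 of the 30, beside 13.0% of all deposited probe sets. Among the 13 probe sets that name several genes, 12 lay within 0.2 log2 units of 0, as did 11 of the 17 that name 1 gene.

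**Figure D3:**
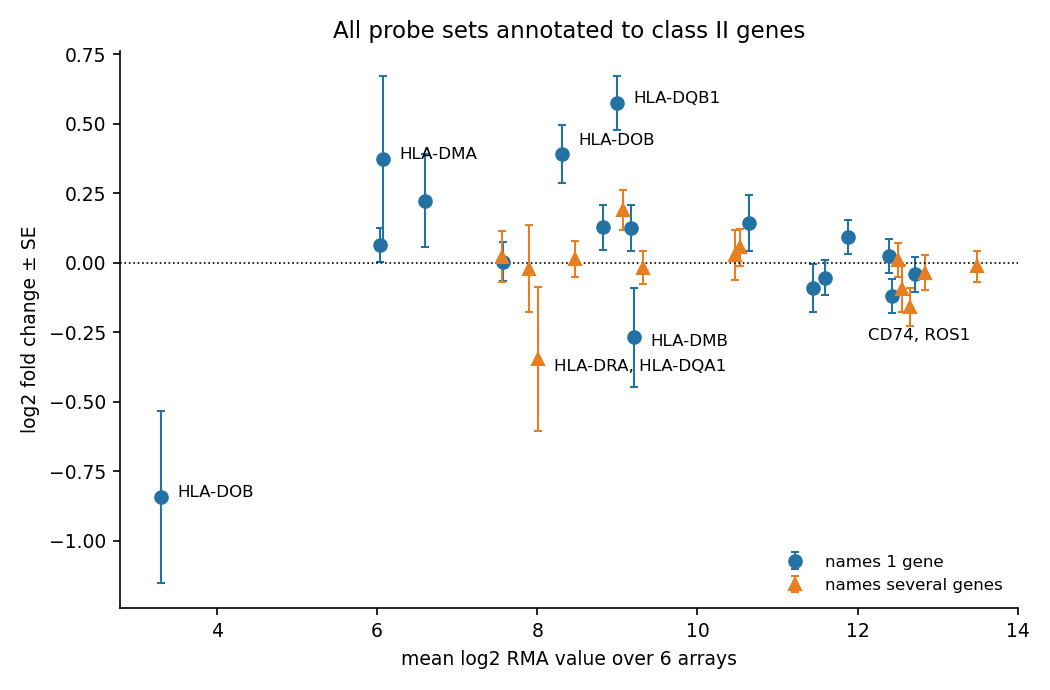
Log2 fold change (UGT2B17 shRNA minus scrambled, ± SE) against the mean log2 RMA value for the 30 probe sets annotated to class II genes; circles name 1 gene and triangles several. The bright probe sets lie close to 0, HLA-DQB1 and 1 probe set of HLA-DOB lie highest at 0.57 and 0.39, and a dim probe set of HLA-DOB lies lowest at -0.84.

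Neither dimer that governs peptide exchange in the class II groove had a chain that passed, and HLA-DOB came closest. HLA-DOB, the beta chain of HLA-DO, read 8.46, 8.51 and 8.55 log2 units in the knockdown and 8.28, 8.17 and 7.90 in the control. The groups were apart, with means of 8.51 ± 0.05 and 8.11 ± 0.19 (SD, n = 3 each). HLA-DOB thus differed by 0.39 ± 0.10 log2 units (SE; 95% interval 0.17 to 0.61) and just missed the threshold (limma, adjusted p = 0.0649). At the 0.05 threshold it passed in 3 of 15 alternatives. These were brighter genes only (limma, adjusted p = 0.0458), array weights (0.00317), where 3511 of all 18404 genes passed, and the fit without scrambled replicate 1 (0.0384). In the others it did not pass, with an adjusted p of 0.182 over all deposited probe sets and at most 0.213, without knockdown replicate 3. A second HLA-DOB probe set, dim at percentile 5.20 of all probe sets, read 2.63, 3.08 and 2.94 in the knockdown against 3.79, 4.34 and 3.04. That is a log2 fold change of -0.84 ± 0.31 (limma over all deposited probe sets, adjusted p = 0.318) in the opposite direction, with overlapping groups.

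HLA-DOA, the alpha chain of HLA-DO, read 9.10, 9.25 and 9.34 in the knockdown and 9.16, 9.11 and 9.04 in the control. The groups overlapped, and HLA-DOA differed by 0.12 ± 0.08 log2 units (SE; limma, adjusted p = 0.459). Its second probe set gave 0.13 ± 0.08.

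HLA-DMA, the alpha chain of HLA-DM, read 10.69, 10.72 and 10.76 in the knockdown against 10.41, 10.53 and 10.79. Scrambled replicate 3 was above every knockdown array and the other 2 controls were below them. The log2 fold change was 0.14 ± 0.10 (SE; adjusted p = 0.489). Without scrambled replicate 3 it was 0.25 and still did not pass (limma, adjusted p = 0.0862). Its second probe set gave 0.37 ± 0.30, with overlapping groups. With array weights HLA-DMA passed at 0.19 (limma, adjusted p = 0.0364), a setting in which 3511 of all 18404 genes passed. The weights counted scrambled replicate 3 least, at a weight of 0.25, and scrambled replicate 2 most, at 6.12.

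HLA-DMB, the beta chain of HLA-DM, read 9.08, 9.15 and 8.98 in the knockdown against 9.08, 9.16 and 9.77. Scrambled replicate 3 stood above the other 5 arrays. The log2 fold change was -0.27 ± 0.16 (SE; limma, adjusted p = 0.432), and it was -0.05 without that array.

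**Figure D4:**
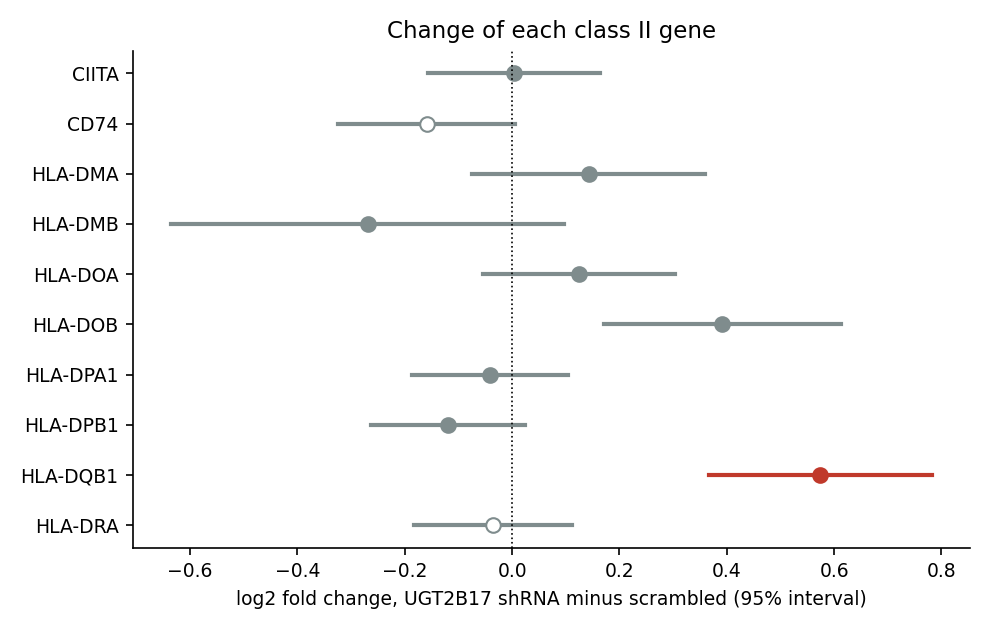
Log2 fold change of each class II gene with its 95% interval from limma (n = 3 arrays per group); open circles mark the shared probe sets of CD74 and HLA-DRA, and red marks the gene that passed. The interval of HLA-DQB1 runs from 0.37 to 0.78 and that of HLA-DOB from 0.17 to 0.61, while those of the other 8 genes include 0.

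Scrambled replicate 3 was the extreme array for most of the class II genes, in both directions. This array held the highest value of 5 of the 10 genes and the lowest of 4. Over all genes tested it was the highest array for 5315 of 18404. It was highest for CIITA, CD74, HLA-DMA, HLA-DMB and HLA-DPA1 and lowest for HLA-DOA, HLA-DOB, HLA-DQB1 and HLA-DRA. Its part in these differences is measured by leaving it out: HLA-DQB1 then gave 0.52 and HLA-DOB 0.28. HLA-DQB1 varied most over the 6 arrays, with an SD of 0.33 log2 units, and HLA-DRA least, at 0.04. Over these 6 arrays the 5 genes with the profile closest to HLA-DQB1, by root mean square difference of centred log2 values, were CPEB4, an RNA-binding translation factor (0.0395), ZBTB25, a zinc finger protein (0.0593), CAPRIN2, an RNA-binding protein (0.0628), MBOAT1, a lysophospholipid acyltransferase (0.063), and EEIG2 (0.0653). All 5 were themselves higher in the knockdown, by 0.52 to 0.65 log2 units, and they were picked from all genes for this likeness.

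Among regulators of class II transcription, IRF1, an interferon-induced activator, fell and the other 21 of 22 measured genes did not pass, where 1.69% of all genes fell and 3.61% passed in either direction. IRF1 read 8.22, 8.25 and 8.06 log2 units in the knockdown against 8.51, 8.57 and 8.66, without overlap. It fell by 0.40 ± 0.08 log2 units (SE; limma, adjusted p = 0.0256), and the adjusted p ran from 0.0815 to 0.109 without knockdown replicate 1, 2 or 3 or scrambled replicate 2 and was 0.0919 over all deposited probe sets. NFYC, a subunit of the Y box factor NF-Y, read -0.21 ± 0.06 and CREB1, which binds next to the X box, -0.21 ± 0.06, neither passing (adjusted p = 0.112 and 0.130). The X box subunits RFX5, RFXANK and RFXAP read -0.15, -0.24 and 0.01. Of the 22 genes, 17 were below 0, with a median of -0.07, beside 9330 of all 18404 genes. Without scrambled replicate 3, 15 were below 0 and the median was -0.04. Scrambled replicate 3 was the highest array for RFX5, at 9.66 against 9.31 to 9.41, and for RFXANK, at 8.63 against 8.15 to 8.36.

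In interferon gamma signalling, the pathway that induces CIITA in many cells, JAK2 and IRF1 fell and the other 7 of 9 measured genes did not pass; over all genes 1.69% fell. JAK2, a kinase bound to the interferon gamma receptor, read 6.61, 6.78 and 6.80 in the knockdown and 7.26, 7.34 and 7.43 in the control. It fell by 0.61 ± 0.08 log2 units (SE; limma, adjusted p = 0.00649). The receptor chain IFNGR2 read -0.23 ± 0.06 without passing (adjusted p = 0.0846), the other chain IFNGR1 0.16, and SOCS1, an inhibitor of JAK kinases, -0.0044. The median of the list was -0.02, and 0.0027 without scrambled replicate 3.

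Among genes of antigen processing and class II turnover, CTSB rose, CTSC fell and 21 of 23 did not pass, where 3.61% of all genes passed. CTSB, the lysosomal protease cathepsin B, read 7.90, 7.84 and 7.83 log2 units in the knockdown against 7.30, 7.36 and 7.11. It rose by 0.60 ± 0.08 (SE; limma, adjusted p = 0.00692), or 1.52-fold. CTSC, cathepsin C, which activates granule proteases, read 11.08, 11.10 and 11.12 against 11.34, 11.44 and 11.53 and fell by 0.34 ± 0.07 (adjusted p = 0.0370). Its adjusted p ran from 0.125 to 0.140 without knockdown replicate 1, 2 or 3 or scrambled replicate 2 and was 0.112 over all deposited probe sets.

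Beside CTSB and CTSC, other enzymes of this list that act on the invariant chain or on antigen, CTSS, IFI30, LGMN and SPPL2A, did not pass. CTSS, the cathepsin that makes the last cut in the invariant chain in B cells, read 0.13 ± 0.10 (SE), IFI30, the lysosomal thiol reductase, 0.03 ± 0.06, LGMN, an asparaginyl endopeptidase, -0.05 ± 0.08, and SPPL2A, which clears the invariant chain stub, -0.07 ± 0.07. The ubiquitin ligase MARCHF8, which removes class II from the surface, read 0.26 ± 0.09 and CD9, a tetraspanin, 0.22 ± 0.06 (adjusted p = 0.167 and 0.113). The list had a median of 0.01, with 12 genes above 0.

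Class I presentation genes were measured as the neighbouring pathway. Of 22 listed genes, 15 had a probe set of their own and 0 passed (limma), with 4 at an unadjusted p under 0.05, beside 18.2% of all genes. Of the 15, 14 were below 0 and the median was -0.08. Scrambled replicate 3 was the highest array for 11 of the 15, a larger share than over all genes, at 5315 of 18404. Without that array 12 of the 15 were below 0 and the median was -0.05. TAP1, a peptide transporter subunit, read -0.22 ± 0.06 (SE; adjusted p = 0.116), ERAP2, a trimming peptidase, -0.22 ± 0.08 (0.189) and PSME2, a proteasome activator subunit, -0.49 ± 0.15 (0.126). PSME2 read 10.97 on scrambled replicate 3 against 10.27 and 10.46 on the other controls, and passed without scrambled replicate 1 (adjusted p = 0.0430). B2M, the light chain of class I, read -0.02 ± 0.06 and NLRC5, the class I counterpart of CIITA, -0.03 ± 0.06.

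Neighbouring genes in the class II region were also read, among them those next to HLA-DOB. In RefSeq order TAP2, PSMB8, TAP1 and PSMB9 follow HLA-DOB, and they read -0.15, -0.02, -0.22 and -0.08 log2 units, none passing. Of the 13 neighbours, SLC39A7, a zinc transporter of the endoplasmic reticulum, rose by 0.29 ± 0.06 (SE; limma, adjusted p = 0.0319) and 12 did not pass, where 1.92% of all genes rose. That call was lost without any of the knockdown arrays and without scrambled replicates 1 and 2 (adjusted p from 0.0564 to 0.132), when arrays were centred on their median (0.0598) and over all deposited probe sets (0.0899). RING1, a Polycomb ubiquitin ligase, read -0.21 ± 0.07 (adjusted p = 0.171) and BRD2, a bromodomain protein between HLA-DMA and HLA-DOA, -0.11 ± 0.06.

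Of 5 measured partners of class II molecules and CD74, CD44 fell and 4 did not pass, where 1.69% of all genes fell. CD44, a coreceptor of CD74, read 9.18, 9.28 and 9.20 log2 units against 9.73, 9.59 and 9.76, a fall of 0.48 ± 0.07 (SE; limma, adjusted p = 0.0106). The adjusted p was 0.0599 and 0.0573 without knockdown replicates 1 and 3, and 0.0524 over all deposited probe sets. The chemokine receptors CXCR4 and CXCR2 read -0.19 ± 0.09 and -0.19 ± 0.08, and LAG3 and CD4, T cell surface proteins that bind class II, 0.04 and 0.05, none passing.

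**Figure D5:**
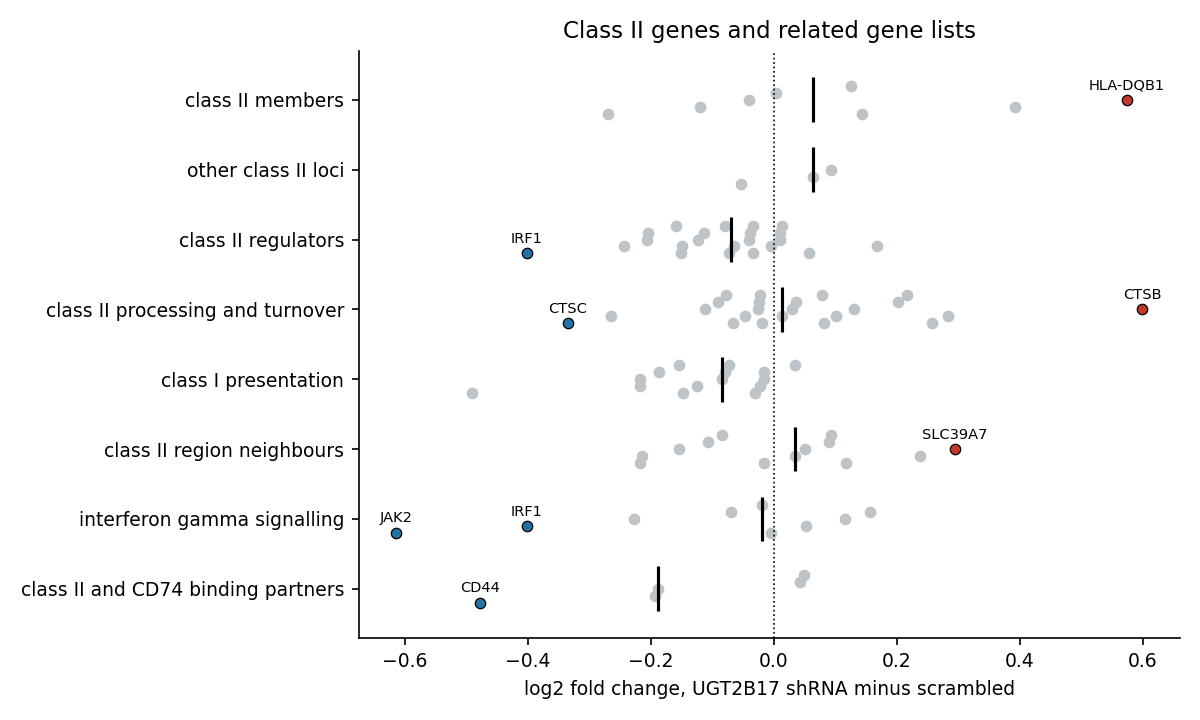
Log2 fold change (UGT2B17 shRNA minus scrambled) of each gene measured on its own probe set, for the class II genes and the 7 related lists, cell type markers left out; vertical bars are list medians, red genes rose and blue genes fell at a limma adjusted p under 0.05, and grey genes did not pass. Among these 8 lists HLA-DQB1 and CTSB lie furthest right at 0.57 and 0.60, and JAK2 lies furthest left at -0.61.

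The B cell label was checked against its markers. MS4A1 (CD20), CD22, CD79A and CD79B read 12.29, 11.93, 11.21 and 9.57 log2 units in the control, and 0 of 8 measured B cell markers passed (limma), with 2 at an unadjusted p under 0.05, CD40 at -0.23 ± 0.07 and PAX5 at -0.21 ± 0.07 (SE; adjusted p = 0.111 and 0.162). The T cell receptor subunits CD3D, CD3E and CD3G read 5.05, 4.98 and 5.19, and LYZ and CD14, markers of monocytes, 3.37 and 5.43. Averaged over each list, B cell markers read 10.56 on each knockdown array and 10.56 to 10.61 on the controls, and the 11 monocyte and dendritic cell markers 5.06 to 5.12 and 5.10 to 5.22. Of these 11, 0 passed, with 2 at an unadjusted p under 0.05; ITGAM read -0.60 ± 0.15 (adjusted p = 0.0659), CD14 -0.19 and S100A8 -0.20. The 12 T and NK cell markers read 5.70 to 5.75 and 5.68 to 5.86; KLRD1 fell by 0.64 ± 0.08 (adjusted p = 0.0062), and CD28 at 0.33, NKG7 at 0.25 and the NK cell receptor KLRF1 at -0.66 (adjusted p = 0.163) did not pass. Of these 12, 1 passed and 4 had an unadjusted p under 0.05. Over all genes 3.61% passed and 18.2% had an unadjusted p under 0.05, which are also the shares for the B cell and monocyte counts. Of 6 plasma cell markers, TNFRSF17 fell by 0.66 ± 0.07 (adjusted p = 0.00309), MZB1 rose by 0.44 ± 0.08 (0.0180), and the other 4 did not pass, XBP1 at 0.15 among them, where 3.61% of all genes passed. The adjusted p of MZB1 ran from 0.0698 to 0.0864 without knockdown replicate 1, 2 or 3 or scrambled replicate 2 and was 0.0733 over all deposited probe sets. PRDM1, a repressor of CIITA in plasma cells, read 7.20 ± 0.09 in the knockdown and 7.23 ± 0.35 (SD, n = 3) in the control.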

How the data were processed

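Total RNA from 6 MEC-1 samples was labelled with biotin and hybridised to 1 Affymetrix array each, per the labels. The authors deposited log2 values made with RMA, per the submitters' processing notes, which name no version. The 6 columns were used as deposited, from 2.20 to 14.3 on 32321 probe sets.

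Probe sets were named from the platform annotation: 19158 carry 1 symbol and 1388 several. One probe set per gene, the brightest of those with 1 symbol, left 18404 genes, with no filter on dim probe sets. The 2 groups were fitted without covariates by lmFit and eBayes of limma 3.58.1 (R 4.3.3). Two-sided p-values were adjusted by Benjamini-Hochberg over the 18404 genes and called under 0.05. Shared probe sets were taken from the same fit over all 32321. Fold changes are knockdown minus scrambled. The procedure was tested on simulated data.

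The class II genes and the gene lists were chosen with earlier results of these data known. Named were UGT2B17, the 10 genes, every probe set of a class II gene, each list's genes that passed and its 3 with the smallest p, and the 5 closest profiles; other genes were chosen for their role or position after their values were seen. Alternatives were 2 other scalings, brighter genes only, an intensity trend, a robust prior, array weights, a replicate block, testing every single-gene probe set or every deposited one, each array left out in turn and a threshold of 0.1. Promoter sequences are RefSeq's, GRCh38.p14.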

Additional observations from a re-analysis of the deposited data

How the results depend on the processing

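The 3 arrays per group limit every value. Over all genes the count of 665 moved to 3511 with array weights, 367 with the replicate block, 1207 at a threshold of 0.1 and 139 when all deposited probe sets were tested, and to between 152 and 759 with single arrays left out. Of the 8 class II genes with a probe set of their own, 1 passed, beside 3.61% of all 18404 genes. That count became 2 among brighter genes only, where 796 of 9202 genes passed, and 2 at 0.1. It was 3 with array weights, where 3511 of all 18404 genes passed. It was 0 over all deposited probe sets, and 0 to 2 with single arrays left out. Of the 85 genes of the related lists, 6 passed, beside 3.61% of all 18404 genes. With array weights 19 of the 85 passed, where 3511 of the 18404 did. With the replicate block 3 passed, where 367 of the 18404 did. Over all deposited probe sets 2 passed, where 139 of the 18404 did. The count was 2 to 7 with single arrays left out. HLA-DQB1 stayed above 0 in all 15 alternatives (0.51 to 0.65) and passed in 11; with the replicate block it passed. CIITA turned negative, without passing, under quantile normalisation (-0.0046), median centring (-0.0199) and 4 of the 6 fits without 1 array (-0.0002, -0.0277, -0.016 and -0.0206; the highest of the 6 was 0.0479). With the replicate block IRF1, CTSC and SLC39A7 did not pass (adjusted p = 0.0705, 0.0788 and 0.0962 in limma). The list medians and counts below 0 without scrambled replicate 3 were added after seeing the data. The replicate numbers did not pair the arrays: deviations from the group means correlated at -0.05, -0.07 and -0.03 for arrays of the same number.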

Other observations

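The 4 class II genes whose promoter entry held the X box core and the Y box core at the spacing of 20 to 30 bases, HLA-DQB1, HLA-DOB, HLA-DMA and HLA-DOA, had log2 fold changes of 0.57, 0.39, 0.14 and 0.12. The other 4 with an entry did not match the letters of both cores at that spacing. These genes, CD74, HLA-DMB, HLA-DPA1 and HLA-DPB1, read -0.16, -0.27, -0.04 and -0.12. HLA-DMB and HLA-DPA1 held the X box core, and CD74, HLA-DMB and HLA-DPB1 held the Y box core on either strand. A missing match says only that these letters are absent, so the split does not show that these promoters lack X and Y boxes. Only HLA-DQB1 passed among these 8, and the letters were chosen with the sequences and the values known. The values are those of 1 probe set per gene: the 6 other probe sets naming HLA-DQB1 read -0.02 to 0.05, the second of HLA-DOB read -0.84, that of CD74 is shared with ROS1, and HLA-DMB read -0.05 without scrambled replicate 3. This is a description of these 8 probe sets and was not tested.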
